A study of Mus musculus with 4 samples.

Results

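NFAT transcription factors and calcineurin, the phosphatase that activates them, were followed in CD4 cells of sanroque and wild type mice. The set held 10 genes: the NFAT factors Nfatc1, Nfatc2, Nfatc3 and Nfat5, the calcineurin subunits Ppp3ca, Ppp3cb, Ppp3cc and Ppp3r1, and the calcineurin inhibitors Rcan1 and Cabin1. Every probe set annotated to one of these genes alone was taken, which gave 23 of the 22690 probe sets of the array and covered 9 of the 10 genes. Cabin1 is not analysed here, and 1 further probe set that Ppp3r1 shares with another gene was not used.

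RNA was measured on 4 Affymetrix MOE430A arrays, with CD4 cells of san/san mice on 2 arrays and CD4 cells of +/+ mice on 2. San/san mice are homozygous for sanroque, a variant made by ENU mutagenesis of C57BL/6 males, which lies in Rc3h1, the gene of the RNA-binding protein Roquin-1, and they form antinuclear autoantibodies. The sources used here give no age, sex or treatment of the mice profiled, nor whether the 2 arrays of a genotype held separate mice. The p-values thus rest on the spread between arrays, which may be technical. The array records describe sorted T cells for both number 1 arrays, and that of wild type array 2 has the letters CBA, which no label explains. The labels do not state the strain of the mice profiled. Rc3h1 itself is not analysed here.

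In T cells, antigen receptor signalling raises cytosolic calcium, calmodulin then switches on calcineurin, and calcineurin removes phosphates from Nfatc1, Nfatc2 and Nfatc3 so that they enter the nucleus. There they bind DNA alone or together with AP-1, a dimer of Fos and Jun proteins, and switch on cytokine and receptor genes. Nfat5 lacks the calcineurin docking region and responds to high salt, while Rcan1 binds calcineurin and restrains it and is itself switched on by NFAT from a second start site inside the gene.

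Because Rcan1 is a target of the pathway it restrains, the 250 bases before each of its 2 annotated starts were set beside those before Il21, a cytokine gene known as an NFAT target. Capitals mark the NFAT core GGAAA on either strand (TTTCC when read on the other) and the AP-1 motif TGANTCA, which reads the same on both strands. The motifs do not overlap in these windows. The sequences are RefSeq's, build GRCm38.p6, 5′ to 3′ on the minus strand, on which all 3 starts lie. The regions are chr16:92466170-92466419 for the upstream start of Rcan1, chr16:92400079-92400328 for its downstream start, and chr3:37232637-37232886 for Il21.
Rcan1 upstream start: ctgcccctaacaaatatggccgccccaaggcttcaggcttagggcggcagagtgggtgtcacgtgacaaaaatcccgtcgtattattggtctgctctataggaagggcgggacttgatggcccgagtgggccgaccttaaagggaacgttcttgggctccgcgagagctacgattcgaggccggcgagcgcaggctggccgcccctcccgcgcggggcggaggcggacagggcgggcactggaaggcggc
Rcan1 downstream start: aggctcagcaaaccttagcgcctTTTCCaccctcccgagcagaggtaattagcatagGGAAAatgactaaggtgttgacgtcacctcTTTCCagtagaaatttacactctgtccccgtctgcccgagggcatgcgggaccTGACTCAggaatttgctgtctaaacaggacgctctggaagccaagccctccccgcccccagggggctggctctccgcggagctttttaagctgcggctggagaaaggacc
Il21: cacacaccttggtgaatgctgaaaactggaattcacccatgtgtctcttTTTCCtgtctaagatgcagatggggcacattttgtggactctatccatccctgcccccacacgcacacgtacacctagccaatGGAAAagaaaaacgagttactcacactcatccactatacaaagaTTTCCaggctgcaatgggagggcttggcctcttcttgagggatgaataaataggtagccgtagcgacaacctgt
The downstream start, 66091 bases from the upstream one, had 3 NFAT cores and 1 AP-1 motif before it, and the upstream start had 0 of either. Il21 had 3 cores and 0 AP-1 motifs. Of 32851 RefSeq windows of this length, 55.6% held at least 1 NFAT core, 6.39% held at least 3, and 6.75% held the AP-1 motif. A match to these letters is not a measured binding site.

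Signals are the deposited linear intensities, 1 per probe set and array. Changes are sanroque minus wild type on the scale log2(signal + 6), which understates the change of dim probe sets, and intervals are 95% confidence intervals from limma. A probe set was tested if its mean over the 4 arrays reached 21.3, and called if its Benjamini-Hochberg adjusted p over all 13579 tested was under 0.05. Signals of different probe sets are not compared, since each probe set has its own brightness. Of the 23 probe sets, 17 were tested and 6 lay below the filter, and each of the 9 genes kept at least 1.

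Of the 17 tested probe sets 1 was called, a probe set of Nfatc1 that was higher in sanroque. Over the whole array 144 probe sets, or 1.06%, were called, 0.67% as higher and 0.39% as lower. At an unadjusted p under 0.05 there were 2 of 17, both of Nfatc1, beside 9.89% over the array. The genotypes did not overlap for 7 of the 17, 5 higher and 2 lower, which is near the array's own share of 38.7% (21.0% higher and 17.7% lower). The median change was 0.07 over the 17 and 0.01 over all tested probe sets.

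Nfatc1, the NFAT factor whose short form accumulates in stimulated lymphocytes, was the member with a called change. Probe set 1417621_at read 336.4 and 352.1 on sanroque arrays 1 and 2, against 188.8 and 150.9 on wild type arrays 1 and 2. Both sanroque signals lay well above both wild type signals, and the ratio of the means was 2.03. The log2 change was 1.00 with a standard error of 0.19 and an interval of 0.59 to 1.41 (limma adjusted p = 0.0298). It was 0.81 between the number 1 arrays, which shared a hybridisation day, and 1.19 between the number 2 arrays, which shared another. With that day as a block the limma adjusted p was 6.06e-05. The block fit leaves 1 residual degree of freedom per probe set. Its p-values, here and below, thus rest mostly on variance that limma pooled over probe sets.

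The other Nfatc1 probe set, 1425761_a_at, read 188.4 and 189 in sanroque, against 115.4 and 140.3 in wild type. Again both sanroque arrays were higher, with a ratio of means of 1.48. Its log2 change of 0.55 (standard error 0.19, interval 0.13 to 0.97) did not pass (limma adjusted p = 0.334), but did with the day as a block (adjusted p = 0.0449). So 1 of the 17 was called without the block and 2 with it, where 6.27% of the array was called. The changes of the 2 probe sets differed by 0.46, by 0.13 on the first day and 0.78 on the second. An exact two-sided permutation test of that difference over arrays gave p = 0.333, the smallest it can give with 2 arrays per genotype. The sources used here do not give which Nfatc1 transcripts each probe set reads.

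The Nfatc1 call rested on each of 3 arrays. For 1417621_at the limma adjusted p was 0.0608 without sanroque array 1, 0.102 without sanroque array 2 and 0.0787 without wild type array 2, and 0.00141 without wild type array 1. It was 0.192 with each array centred on its median, 0.0872 with no filter and 0.21 with no variance trend. Its change stayed between 0.85 and 1.16 over all 13 settings, and that of 1425761_a_at between 0.41 and 0.68.

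Nfatc1 is made in B cells and myeloid cells as well as in T cells, so markers of other cells were read beside it. In bulk RNA, a change in the number of such cells and a change of RNA per cell cannot be told apart. Of 9 tested myeloid markers 4 rose, 9 had a change above 0, and the summed signal over all 10 was 2625.8 and 2647.9 in sanroque, against 1145.2 and 1243.9 in wild type. Of 7 tested B cell markers, none passed by limma (1 at an unadjusted p under 0.05). The summed signal over all 8 with a probe set was 1232.6 and 1303.7 in sanroque, against 1299.9 and 1353.8 in wild type. The 8 T cell markers, of which none passed either by limma (1 at an unadjusted p under 0.05), summed to 9242.5 and 10506.4 in sanroque, against 10099.2 and 11071.3 in wild type. Markers of CD8 T or NK cells summed to 557.1 and 625.4 in sanroque, against 581.5 and 547.3 in wild type. Those of red cells or platelets summed to 1050.6 and 1115 in sanroque, against 745.1 and 757.9 in wild type. Most of that last sum was Alas2, at 905.2 and 1027.4 in sanroque, against 604.4 and 637.4 in wild type. Of the 3 tested markers on that list, 1 had a change above 0 and 2 below. The 2 were the platelet markers Pf4 (-0.23) and Itga2b (-0.26). With the day as a block, 7 myeloid markers were called higher, 1 B cell marker lower (Cr2, -0.73), 1 CD8 or NK marker higher (Nkg7, 0.79), 1 red cell marker higher (Alas2, 0.63) and 0 T cell markers by limma. No marker on these lists was at 0 on any array. The part of the myeloid shift in the Nfatc1 values was not tested. Cd4 itself read 585.9 and 570.2 in sanroque by its brighter probe set, against 533.3 and 613.5 in wild type. By the other, 1427779_a_at, it read 211.1 and 237.4 in sanroque, against 277.2 and 254.7 in wild type. There the genotypes did not overlap, but the log2 change of -0.24 did not pass (limma adjusted p = 0.751).

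**Figure D1:**
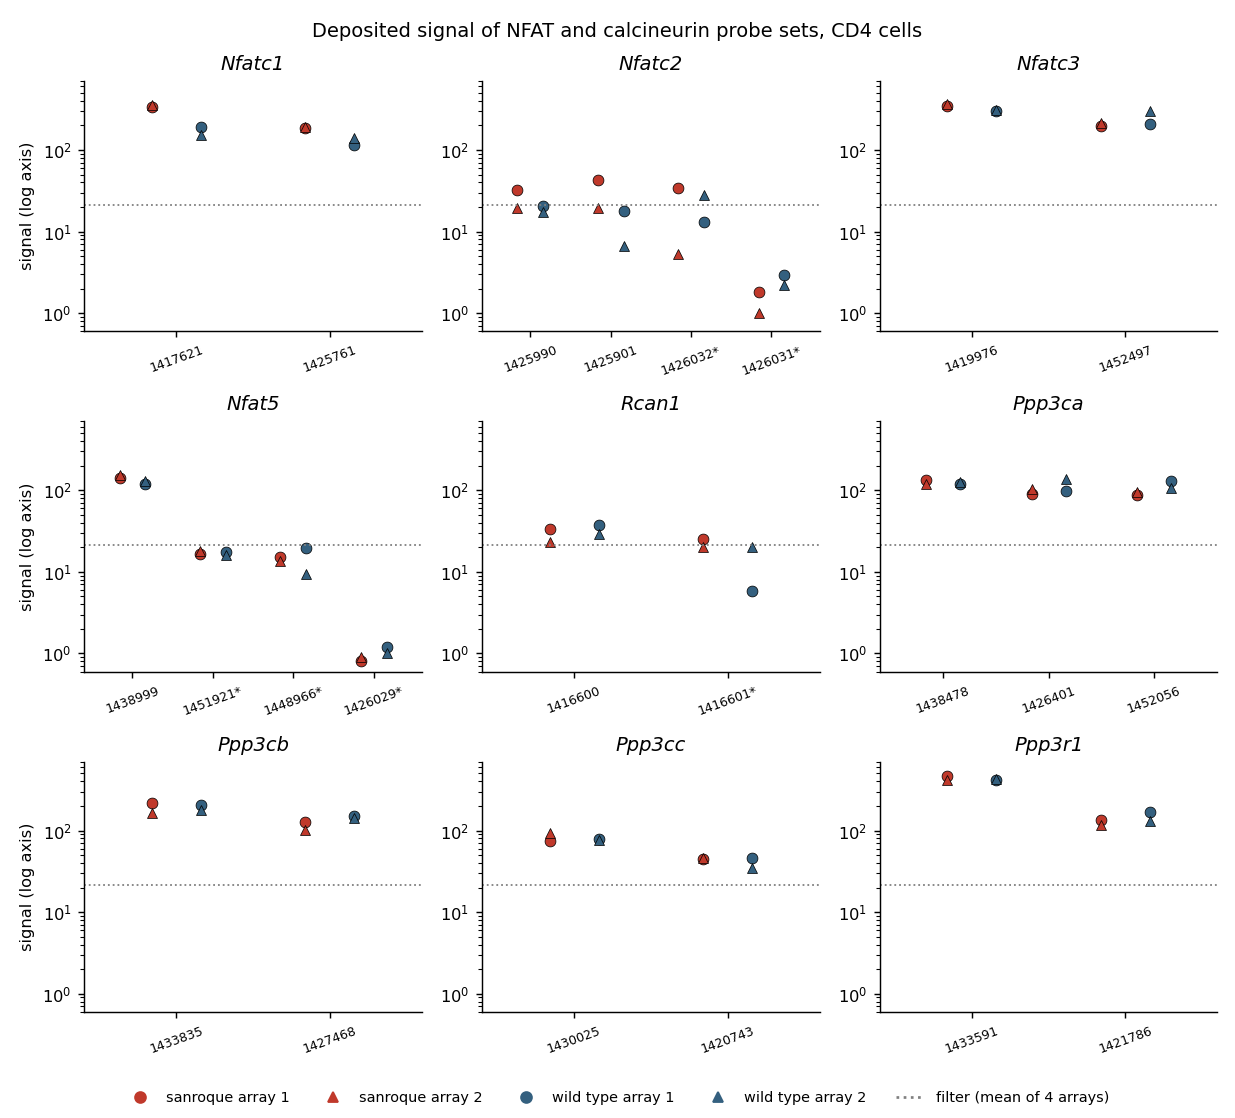
Deposited signal, on a log axis, of the 23 probe sets of 9 genes (x axis, probe set number without its suffix; an asterisk marks the 6 below the filter), with sanroque in red left of wild type in blue, circles for array 1 and triangles for array 2. The dotted line is the filter of 21.3 on the mean of the 4 arrays. Both Nfatc1 probe sets show sanroque above wild type, at 336.4 and 352.1 against 188.8 and 150.9 for the first and at 188.4 and 189 against 115.4 and 140.3 for the second.

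Nfatc2, the factor that waits ready-made in the cytosol of resting T cells, was dim on this array and its 4 probe sets did not give one picture. Probe set 1425901_at read 42.8 and 19.4 in sanroque, against 17.8 and 6.6 in wild type. The genotypes did not overlap, and on each day sanroque was the higher one, by 1.04 and 1.01 on the log2 scale. Yet the arrays of each genotype were far apart, so the change of 1.02 had an interval of -0.19 to 2.24 and did not pass (limma adjusted p = 0.61, and 0.129 with the block). Probe set 1425990_a_at read 32.6 and 19.6 in sanroque, against 20.5 and 17.2 in wild type, and the genotypes overlapped (log2 change 0.34, interval -0.64 to 1.33). The remaining Nfatc2 probe sets lay below the filter. For 1426032_at the signals were 33.8 and 5.3 in sanroque and 13.2 and 28 in wild type, with opposite differences on the 2 days. For 1426031_a_at they were 1.8 and 1 in sanroque and 2.9 and 2.2 in wild type. Over the tested Nfatc2 probe sets the interval bounds ran from -0.64 to 2.24, so a direction could not be given.

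Nfatc3, the third calcineurin-dependent factor of T cells, had 2 tested probe sets whose changes had opposite signs. Probe set 1419976_s_at read 343.8 and 364.1 in sanroque, against 299.4 and 311.6 in wild type, and the genotypes did not overlap. Its log2 change was 0.21 with an interval of -0.17 to 0.58. Probe set 1452497_a_at read 195.7 and 215.5 in sanroque, against 206.1 and 302.5 in wild type, a log2 change of -0.28 with an interval of -0.74 to 0.19. Here wild type array 2 stood above the other 3 arrays, and the difference was -0.07 on the first day and -0.48 on the second. Neither passed (limma adjusted p = 0.785 and 0.764). The difference between their changes, 0.48, had an exact permutation p of 0.333, the smallest it can give with 2 arrays per genotype.

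Nfat5, the salt-responsive relative, had 4 probe sets, of which 1438999_a_at was tested. It read 141.1 and 154.6 in sanroque, against 120.1 and 130.6 in wild type, with the sanroque arrays just above. The log2 change was 0.23 with an interval of -0.19 to 0.64 (limma adjusted p = 0.788), and it was 0.22 and 0.23 on the 2 days. The 3 probe sets below the filter showed no common direction. Of these, 1451921_a_at read 16.5 and 18.1 in sanroque and 17.5 and 16.3 in wild type. For 1448966_a_at the signals were 15.2 and 13.6 in sanroque and 19.6 and 9.4 in wild type. For 1426029_a_at, at the bottom of the table, they were 0.8 and 0.9 in sanroque and 1.2 and 1 in wild type.

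Rcan1, the feedback inhibitor whose downstream start carries the NFAT cores shown above, had no called change. The sources used here do not give from which start the Rcan1 transcripts read by each probe set come. Probe set 1416600_a_at read 33.7 and 23.4 in sanroque, against 37.6 and 29.1 in wild type. The genotypes overlapped, and the log2 change was -0.20 with an interval of -0.99 to 0.60 (limma adjusted p = 0.935). The arrays within each genotype lay farther apart than the genotype means did. Probe set 1416601_a_at lay below the filter at 25.5 and 20.2 in sanroque, against 5.9 and 20 in wild type. There the genotypes did not overlap and sanroque was the higher one, opposite in direction to 1416600_a_at. Yet the second sanroque array and the second wild type array were almost level, and wild type array 1 stood apart on the low side. Over the 4 arrays, the 3 pathway genes out of 50 with the profile nearest to 1416600_a_at were Lrrk2, Csnk1e and Rcan3. Their Euclidean distances of centred log2 values were 0.28, 0.35 and 0.36. With 4 arrays this is a description only.

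Calcineurin is a dimer of a catalytic A subunit, encoded by Ppp3ca, Ppp3cb or Ppp3cc, and a regulatory calcium-binding B subunit, which is Ppp3r1 outside the testis. All 9 calcineurin probe sets were tested and none passed, with limma adjusted p between 0.651 and 0.983 and 0 at an unadjusted p under 0.05. Their changes ran from -0.34 to 0.15, 4 above 0 and 5 below, with a median of -0.03. The widest bounds of their intervals were -0.78 and 0.78, so for each of the 9 a change beyond 0.78 in size lay outside the interval.

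Ppp3ca, the main catalytic subunit in brain, had 3 probe sets. Probe set 1438478_a_at read 132.3 and 119.5 in sanroque, against 119.3 and 126 in wild type, with overlapping genotypes and a log2 change of 0.03. Probe set 1426401_at read 90.8 and 102.6 in sanroque, against 98.7 and 137.8 in wild type, a change of -0.26. For 1452056_s_at the signals were 88.4 and 95 in sanroque, against 128.2 and 105.3 in wild type, a change of -0.32, and here the genotypes did not overlap. The probe sets thus disagreed in sign. The largest difference between their changes was 0.36, with an exact permutation p of 0.333, the smallest it can give with 2 arrays per genotype.

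Ppp3cb, the catalytic subunit that mouse T cells depend on in development, read 214.7 and 164.8 in sanroque by 1433835_at, against 207.4 and 177.2 in wild type, a log2 change of -0.03. By 1427468_at it read 127.2 and 101.9 in sanroque, against 148.6 and 142.8 in wild type. Here both sanroque arrays were lower, by 0.21 and 0.46 on the 2 days, and the change of -0.34 (interval -0.78 to 0.10) was the lowest among the 17 tested. Ppp3cc, the catalytic subunit first known from testis, read 74.3 and 93 in sanroque by 1430025_at, against 77.9 and 76.1 in wild type (log2 change 0.10). By 1420743_a_at it read 44.4 and 46.2 in sanroque, against 46.1 and 35.2 in wild type (log2 change 0.15). Both Ppp3cc probe sets overlapped between genotypes.

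Ppp3r1, the regulatory subunit, read 472.2 and 417.8 in sanroque by 1433591_at, against 417.4 and 426.6 in wild type. The log2 change was 0.07 with an interval of -0.30 to 0.45. By 1421786_at it read 135.1 and 116.7 in sanroque, against 167.5 and 132.5 in wild type, a change of -0.24 with an interval of -0.68 to 0.21. Genotypes overlapped for both, and the signs disagreed. In all, 4 of the 9 pairs of tested probe sets of one gene had opposite signs, in Nfatc3, Ppp3ca and Ppp3r1. In none of the 9 pairs could the exact test over 4 arrays go below p = 0.333.

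**Figure D2:**
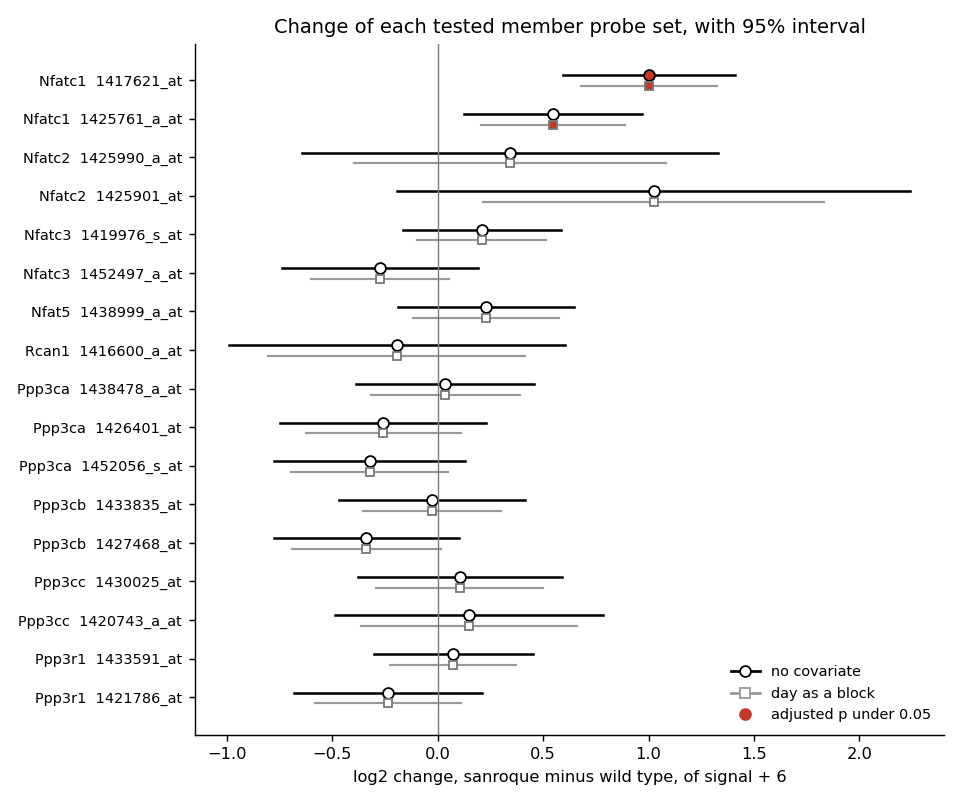
Change of each of the 17 tested probe sets (y axis) on the log2(signal + 6) scale, sanroque minus wild type (x axis), with 95% intervals from limma, in black without a covariate and in grey with the hybridisation day as a block. Filled red symbols had an adjusted p under 0.05: Nfatc1 1417621_at at 1.00 in both fits and Nfatc1 1425761_a_at at 0.55 with the block alone.

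Other genes of the pathway were read from 7 lists of 81 genes, each gene by its brightest tested probe set. Of 50 genes tested, 4 were called higher and 4 lower, beside 0.67% and 0.39% over the array, and with the day as a block 10 were called higher and 7 lower, beside 3.59% and 2.68%. All 8 calls lay among genes downstream of NFAT or in its partner AP-1. The lists were chosen with earlier results of these data known, so the place of the calls in the pathway cannot be read as a result. Upstream of NFAT limma called 0 of 8 genes of calcium entry (1 at an unadjusted p under 0.05; median change -0.06). It called 0 of 3 partners of calcineurin (0 at an unadjusted p under 0.05; median 0.03) and 0 of 9 NFAT kinases and anchors (0; median 0.02). The calcium channel gene Orai1 read 173.5 and 167.3 in sanroque by its brighter probe set, against 232.4 and 269.3 in wild type. Its log2 change was -0.54 (interval -0.94 to -0.14; limma adjusted p = 0.303, and 0.0379 with the block), but its other probe set had 0.05. Of the 8 calcium entry genes 6 had no overlap between genotypes, beside 38.7% of the probe sets tested over the array. They went both ways, with Itpr2, Itpr3 and Kcnn4 higher in sanroque and Orai1, Stim1 and Atp2a3 lower. The largest changes among those 6 after Orai1 were -0.31 for Atp2a3, a calcium pump, and 0.29 for Itpr2, a calcium release channel. The 5 tested probe sets of Itpr2 disagreed in sign, from -0.47 to 0.61. The NFAT kinase genes Gsk3b and Mapk14 had -0.63 and -0.24, and Fkbp1a, whose protein carries FK506 to calcineurin, had -0.26. None of these passed. Fkbp1a had 3 further tested probe sets, all lower in sanroque, and 1 of them, 1416036_at, passed with the block (-0.52, limma adjusted p = 0.48, and 0.0255 with the block). The 5 probe sets of the NFAT kinase gene Csnk1d, named after its values were seen, disagreed in sign, from -0.34 to 0.73. The highest, 1449932_at, did not pass (limma adjusted p = 0.184) but did with the block (0.00403).

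Of 23 genes known as NFAT targets in T cells 16 were tested, and 4 rose, none fell and 12 did not pass. The list was written with earlier results of these arrays known, and several of its genes are also follicular helper genes. Its median change was 0.71, beside 0.01 over all tested probe sets. The 4 were Pdcd1, an inhibitory receptor, the cytokine Il21, the chemokine receptor Cxcr5 and Egr2, a transcription factor. Il21, whose promoter is shown above, read 78.9 and 56.8 in sanroque, against 16.1 and 13.4 in wild type, a change of 1.82 with an interval of 1.06 to 2.57 (limma adjusted p = 0.0307). Pdcd1 had a change of 2.11, Cxcr5 of 1.24 and Egr2 of 1.17, although the other Egr2 probe set had -0.34. Pdcd1 was also called under the other settings tried. With no filter the limma adjusted p was 0.168 for Il21, 0.0601 for Cxcr5 and 0.143 for Egr2, and with no variance trend it was 0.0507, 0.132 and 0.192. Il21 was not called without sanroque array 1 (0.259) or 2 (0.0649) either, nor Egr2 without sanroque array 1 (0.182) or under quantile normalization (0.0619).

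Members of the target list that did not pass went both ways. The inhibitory receptor gene Lag3 read 39.9 and 54.1 in sanroque, against 7.2 and 13.3 in wild type, a change of 1.72 (limma adjusted p = 0.122, and 0.00159 with the block). Il2ra, a chain of the interleukin 2 receptor, had 0.85 (limma adjusted p = 0.227, and 0.02 with the block). Its other tested probe set had 0.07, with overlapping genotypes. The cytokine gene Ifng had -0.94 (adjusted p = 0.38, and 0.0532 with the block), with 22.5 and 19.9 in sanroque, against 37.9 and 56.2 in wild type. With the block 9 of the 16 were called higher and 1 lower. The lower one was Nr4a1, a nuclear receptor gene induced through the antigen receptor and named after its values were seen (-0.78, limma adjusted p = 0.0828, and 0.000985 with the block).

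Genes of AP-1 subunits were mostly lower in sanroque. Of 7 tested, 4 fell (Fos, Jun, Junb and Fosb), none rose and 3 did not pass, with a list median of -1.75. Fos read 81 and 99.7 in sanroque, against 2393.2 and 2968 in wild type. Fosb fell by 1.75 (limma adjusted p = 0.0307) but was not called without sanroque array 2 (0.0673) or wild type array 1 (0.109), with no filter (0.194) or with no variance trend (0.16). Jund had -0.95 (adjusted p = 0.057, and 2.16e-05 with the block). Batf, an AP-1 subunit of follicular helper and Th17 cells, had 0.77, with 294.9 and 211.8 in sanroque, against 151.6 and 136.2 in wild type (adjusted p = 0.143, and 0.00217 with the block).

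Cabin1 is known to hold MEF2 factors inactive, and of 4 MEF2 genes limma called 0 (0 at an unadjusted p under 0.05; median change 0.04). Mef2b, dim at 34.8 and 30.3 in sanroque, against 14.6 and 16.6 in wild type, had 0.83 with an interval of -0.09 to 1.76. The tested probe sets of Mef2a and Mef2c, named after their values were seen, disagreed in sign. They ran from -0.75 to 0.03 for Mef2a and from -0.34 to 0.59 for Mef2c. The lowest of Mef2a, 1427186_a_at, did not pass (limma adjusted p = 0.378) but did with the block (0.0474). Of the 3 tested genes of the osmotic response that Nfat5 drives, limma called 0 (1 at an unadjusted p under 0.05; median -0.22). They were the amino acid transporter Slc38a2 (-0.47), the chaperone Hspa4l (0.45) and the taurine transporter Slc6a6 (-0.22).

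**Figure D3:**
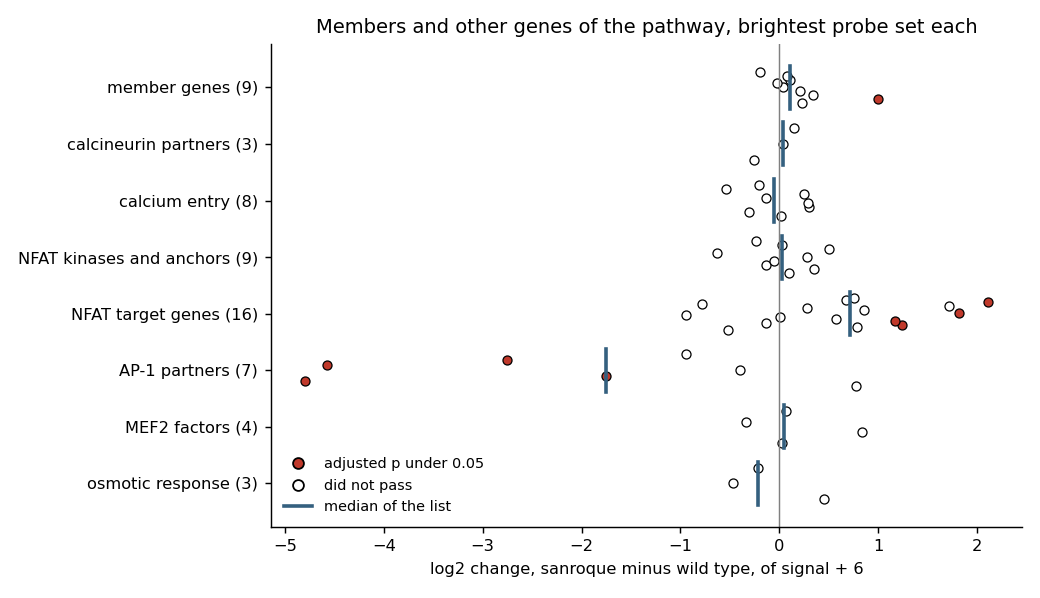
Change of each gene by its brightest tested probe set (x axis, log2(signal + 6), sanroque minus wild type), for the 9 measured members and the 7 lists, with the number of genes tested in brackets (y axis). Red points were called by limma at an adjusted p under 0.05 and bars mark list medians. Nfatc1 is the red point of the top row, and the lists with further calls are the NFAT targets (median 0.71) and the AP-1 partners (median -1.75).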

How the data were processed

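The authors deposited a linear intensity for each probe set and array. Per the file headers the arrays were MOE430A. No source used here says how probes were summarised. Since trimmed means of the deposited intensities lay between 99.59 and 99.97, the values were not scaled again. The array medians were less level, at 40.4 and 32.3 for sanroque arrays 1 and 2 and 36.7 and 30.8 for wild type arrays 1 and 2. Left out were 64 controls and the probe sets whose mean fell under 21.3, the 40th percentile. Genotypes and numbers came from the titles. Per the file headers, same-numbered arrays shared a hybridisation day, so the numbers pair the arrays by day. Deviations from the genotype mean correlated at 0.392 between same-numbered arrays. With 2 arrays per genotype both pairs give this same value by construction.

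Symbols came from the platform annotation, updated through RefSeq. Log2(signal + 6) was fitted with limma 3.58.1 (lmFit, then eBayes with a trend) in R 4.3.3, two-sided, after a test on simulated data. The text names all members and, per pathway list, the called genes (at most 5) and up to 3 others with the largest change among genes without overlap. Members and lists were chosen with earlier results of these data known. Alternatives were quantile normalization, median centring, pseudocounts 1 and 24, other filters (none, and the 60th percentile), eBayes without the trend, the day as a block, each array left out and, for lists, averaged probe sets. Plots used matplotlib 3.10.9 under Python 3.11.15.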

Additional observations from a re-analysis of the deposited data

How the results depend on the processing

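Without the filter 56 probe sets of the array were called, without the variance trend 47, and with the replicate block 852, against 144 in the fit reported. Leaving out 1 array gave 105 to 356, and 356 was without wild type array 1. Of the NFAT and calcineurin probe sets 0 were called with median centring, 0 with no filter and 0 with no variance trend, 2 with the block, and 0 to 1 without 1 array, against 1. Of the pathway list genes 4, 4 and 17 were called without the filter, without the trend and with the block, and 6 to 10 without 1 array, against 8. Changes near 0 turned sign for 6 member probe sets, none of them called. With median centring Ppp3ca 1438478_a_at had -0.0559 and Ppp3r1 1433591_at had -0.0177. With 1 array left out the changes ran from -0.412 to 0.0212 for Rcan1 1416600_a_at, from -0.0353 to 0.105 for Ppp3ca 1438478_a_at and from -0.211 to 0.159 for Ppp3cb 1433835_at. For Ppp3cc they ran from -0.0476 to 0.254 by 1430025_at and from -0.0225 to 0.316 by 1420743_a_at, and for Ppp3r1 1433591_at from -0.0141 to 0.16. The causes were not tested. By their brightest tested probe sets, the 23 pathway genes named by the rule above kept their sign in all 269 alternatives computed for them. The genotypes overlapped for none of these genes, so only quantile normalization and median centring could have turned a sign. The kept signs are thus no test of these genes. The day as a block changed no member's call other than that of Nfatc1 1425761_a_at. The number of arrays limits all of these values, and probe sets near the filter have the widest intervals.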
